A study of Homo sapiens with 16 samples.

Results

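The genes described here are the PGC-1 coactivators PPARGC1A, PPARGC1B and PPRC1, the peroxisome proliferator-activated receptors PPARA, PPARD and PPARG, the estrogen-related receptors ESRRA, ESRRB and ESRRG, and the retinoid X receptor RXRA. They were chosen by name as metabolic regulators of this pathway, with earlier results of these data known, and make up 10 of the 43388 genes in the deposited expression table. Of these 10 genes, 9 had a mean of at least 1 TPM (a read count corrected for gene length and then scaled to the same total in every library) and were tested. PPARG was below that level and is given by its values alone.

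The cells were cardiomyocytes made from WTC11, an established human induced pluripotent stem cell line, by timed activation and inhibition of Wnt signaling, starting from cardiac progenitors that had been frozen. Total RNA was sequenced from 4 groups of 4 wells each, all grown with the B27 supplement. The Day 16 RPMI/B27 group was the starting point, and the other groups had spent a further 2 weeks in their medium. The Day 30 RPMI/B27 group stayed in standard RPMI, and the Day 30 RPMI_glcM/B27 group received RPMI whose glucose was lowered to 5 mM. The Day 30 HPLM/B27 group received human plasma-like medium, a formulation that follows the small-molecule composition of human plasma. Per the study, 5 mM is also the glucose level of HPLM, so these 2 media are matched for glucose. All groups were labelled wild type (WT). All wells came from 1 line and 1 differentiation, so the p-values below measure the spread between wells and not between differentiations or donors.

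PGC-1 coactivators do not bind DNA themselves. They dock on nuclear receptors such as the ERRs and PPARs and recruit the machinery that opens chromatin and starts transcription. In heart muscle the ERRs act on genes of the citric acid cycle, the respiratory chain and the creatine kinase system, and PPARα, which binds DNA together with a retinoid X receptor, acts on genes of fatty acid uptake and oxidation. PPARGC1A itself responds to energy stress and hormonal signals through AMP-activated protein kinase, CREB with its CRTC coactivators, and MEF2 factors.

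In GRCh38.p14 coordinates from RefSeq, PPARGC1A lies at chr4:23792021-24472905, PPARGC1B at chr5:149730310-149857959 and PPRC1 at chr10:102119889-102150333. PPARA lies at chr22:46150526-46243756, PPARD at chr6:35342558-35428178, PPARG at chr3:12287368-12434344 and RXRA at chr9:134326455-134440585. ESRRA spans chr11:64305524-64316743, ESRRB chr14:76310777-76501837 and ESRRG chr1:216503246-217137702. The reads do not show which transcription start a gene used. RefSeq starts gave 27 windows of 300 bases for these 10 genes (250 before and 50 after the start). The 4 sequences below come from PPARGC1A, ESRRA, PPARA and ESRRG, which passed the test in both changed Day 30 media against Day 30 RPMI/B27. Within these genes they were picked because they hold a motif, and windows without one are not shown. The other window of PPARGC1A, that of PPARA and most of those of ESRRG held none of the motifs searched for. Capitals mark a motif that was searched for by its letters on both strands. The first window lies upstream of the distal of 2 PPARGC1A starts, on the minus strand at chr4:24472906-24473155, and its 3′ end holds 46 bases of an exon of the long noncoding RNA ENSG00000289201. The second lies upstream of ESRRA on the plus strand at chr11:64305274-64305496 and stops where the annotated exon of ESRRA begins. The third is the 30 bases around the motif of PPARA on the plus strand at chr22:46150758-46150787, inside the gene and upstream of one of its internal starts. The fourth is the 30 bases around a motif of ESRRG on the minus strand at chr1:217077035-217077064, also inside the gene and upstream of an internal start.
PPARGC1A distal window: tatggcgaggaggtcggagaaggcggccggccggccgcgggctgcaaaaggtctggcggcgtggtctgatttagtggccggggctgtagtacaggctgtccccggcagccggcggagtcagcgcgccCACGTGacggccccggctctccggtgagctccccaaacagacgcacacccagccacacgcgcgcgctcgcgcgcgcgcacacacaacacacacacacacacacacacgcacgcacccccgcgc
ESRRA window: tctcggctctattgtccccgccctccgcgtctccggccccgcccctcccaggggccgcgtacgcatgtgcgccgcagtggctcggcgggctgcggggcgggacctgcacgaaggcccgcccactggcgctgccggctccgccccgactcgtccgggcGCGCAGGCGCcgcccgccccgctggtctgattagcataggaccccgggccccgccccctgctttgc
PPARA site: gggctgggcgGCGCATGCGCggggcccggg
ESRRG site: aattacggtaaaAGGTCAtgtgatttggta

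The capitals in PPARGC1A are an E-box (CACGTG), whose first base lies 123 bases upstream of that start. An E-box was in 1 of the 27 windows and in 7.26% of all 35116 RefSeq windows of this length. The capitals in ESRRA and PPARA are the element of nuclear respiratory factor 1 (NRF1). This element starts 93 bases upstream of the ESRRA start and 20 bases upstream of the PPARA start. It was in 2 of the 27 windows and in 5.78% of all windows. The capitals in ESRRG are the nuclear receptor half-site AGGTCA, 60 bases upstream of an ESRRG start. That half-site occurred in 5 of the 27 windows, all of ESRRG or PPARG, and in 13.8% of all windows. The PPARG windows beginning at chr3:12288810 and chr3:12288820 overlap and hold the same copy, so it is counted more than once. The longer ERR element TCAAGGTCA and the direct repeat of AGGTCA with 1 base between the copies, both of which contain the half-site, were in none of the 27 windows and in 0.353% and 0.0228% of all windows. The cAMP response element TGACGTCA was in none of the 27 and in 1.85% of all. These matches describe letters and not bound sites.

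Libraries held 7744768 to 16183655 reads on genes. The mitochondrial 16S ribosomal RNA (RNR2) took 41.0% to 48.3% of TPM and the small nuclear RNA RN7SK 8.76% to 13.8%. Values were therefore divided by a median-of-ratios factor for each library (0.718 to 1.31) and are called scaled TPM. Fold changes are differences of log2(scaled TPM + 1), which understates the change of low genes. Replicates 3 and 4 of Day 30 RPMI/B27 stood apart. They had the smallest scaling factors (0.783 and 0.718) and the highest mitochondrial 12S ribosomal RNA (RNR1), at 14387 and 29276 TPM against 49.5 to 6806 TPM elsewhere. Each result that compares with that group was recomputed without them.

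PPARGC1A was the most abundant regulator in every group, and ESRRG, the most abundant ERR in these cells, was second. The order of genes rests on the deposited TPM, whose gene lengths are not given in the sources used here. Averaged over the 16 libraries, PPARGC1A stood at 54.5 scaled TPM and ESRRG at 26.8, and the ranges of the 4 libraries of these genes did not meet each other, or that of the third gene, in any group. PPARA (13.3), ESRRA (11.8), PPARD (11.5), PPARGC1B (8.87) and PPRC1 (7.27) formed a middle tier in mean scaled TPM. RXRA averaged 4.79 and ESRRB 2.25 scaled TPM. PPARG, the adipocyte member of its family, averaged 0.149 scaled TPM on 2 to 16 reads a library, against 1499 to 5747 reads for PPARGC1A and 29 to 120 for ESRRB. The lowest library for PPARG was at 0.0391 and the highest at 0.257 scaled TPM, both on Day 16, and no difference between groups was tested at this depth.

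The order inside the middle tier changed with the medium. ESRRA was the fifth most abundant regulator on Day 16, the sixth in Day 30 RPMI/B27, the fourth in RPMI_glcM/B27 and the third in HPLM/B27. On Day 16 its neighbours PPRC1 and PPARGC1B overlapped it in range, whereas PPARD lay above it in all 4 wells. In RPMI_glcM/B27 and HPLM/B27 it overlapped PPARA alone among its neighbours in the order, and it lay above PPARD in all 8 wells. PPARA and PPARD overlapped in Day 16 and Day 30 RPMI/B27, and PPARD and PPARGC1B overlapped in RPMI_glcM/B27 and HPLM/B27.

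**Figure D1:**
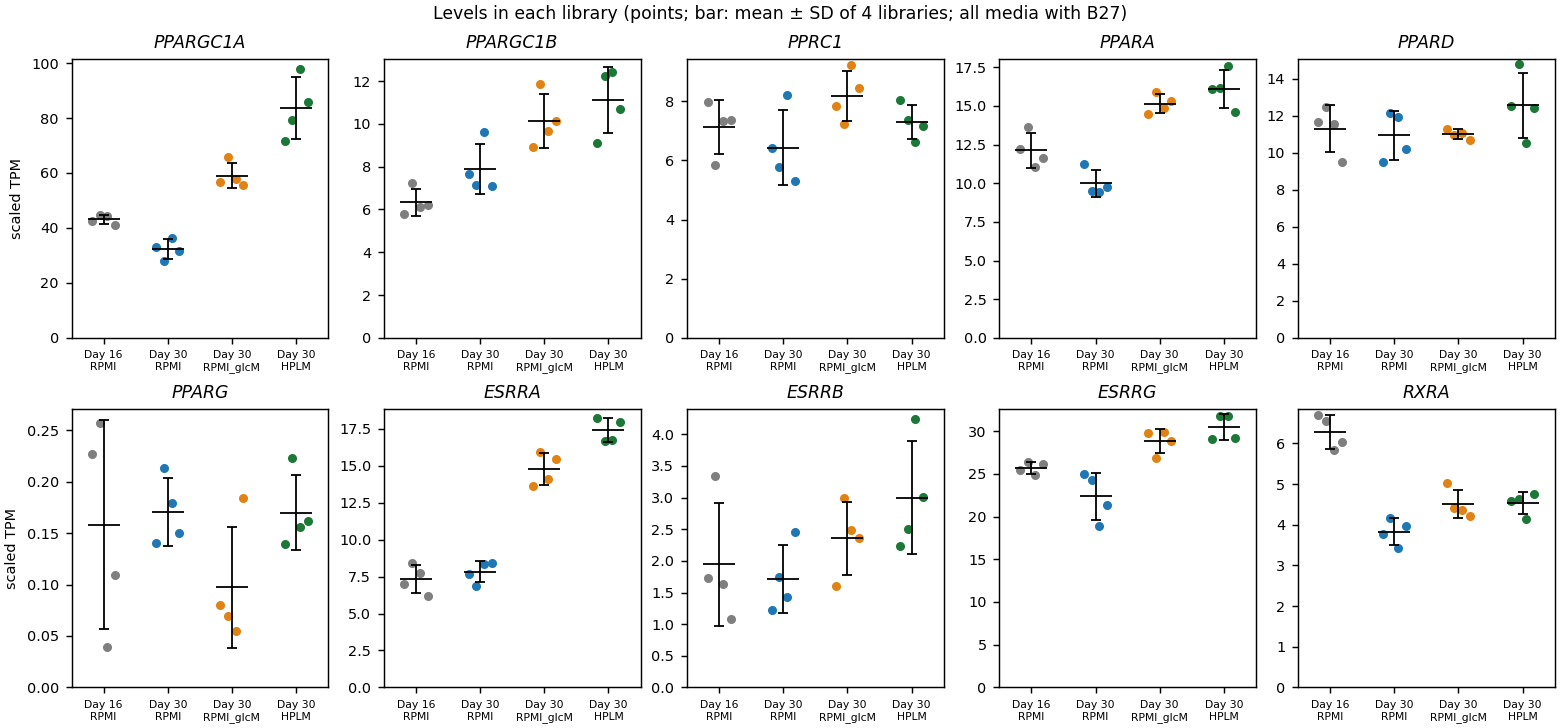
Scaled TPM (linear axis from 0, own scale per panel) of the 10 regulators in each library of the 4 groups, with points for libraries and bars for mean ± SD of 4. PPARGC1A ran from 27.9 to 36.5 in Day 30 RPMI/B27 and from 71.5 to 98.0 in Day 30 HPLM/B27, and RXRA was highest on Day 16.

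Each of the 6 pairs of groups was compared, so the comparisons share samples and are not independent of each other. From Day 16 to Day 30 in unchanged RPMI/B27, 3 of the 9 tested regulators passed the test (limma, adjusted p under 0.05 over all genes), all 3 lower, where 17.5% of all 16122 tested genes passed in either direction, 8.62% higher and 8.91% lower. Against Day 16, 5 of 9 passed in RPMI_glcM/B27, 4 higher and 1 lower (27.5% of all genes passed, with 13.4% higher and 14.2% lower), and 6 of 9 passed in HPLM/B27, 5 higher and 1 lower (25.3% of all, with 12.9% higher and 12.5% lower). Against Day 30 RPMI/B27, 4 of 9 were higher in RPMI_glcM/B27 (12.1% of all genes passed, 6.17% higher and 5.89% lower) and 5 of 9 in HPLM/B27 (12.9% passed, 7.05% higher and 5.87% lower), and no regulator was called lower in either medium. Between HPLM/B27 and RPMI_glcM/B27, PPARGC1A alone passed, where 1.63% of all genes passed and 0.999% were higher. The median log2 fold change over the 9 regulators was −0.14 for Day 30 RPMI/B27 against Day 16, 0.23 and 0.38 for RPMI_glcM/B27 and HPLM/B27 against Day 16, 0.33 and 0.45 for these media against Day 30 RPMI/B27, and 0.12 between them. The median over all tested genes lay between −0.0139 and 0.00553 in these comparisons. In bulk RNA, fewer cells of a type and less RNA per cell cannot be told apart.

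**Figure D2:**
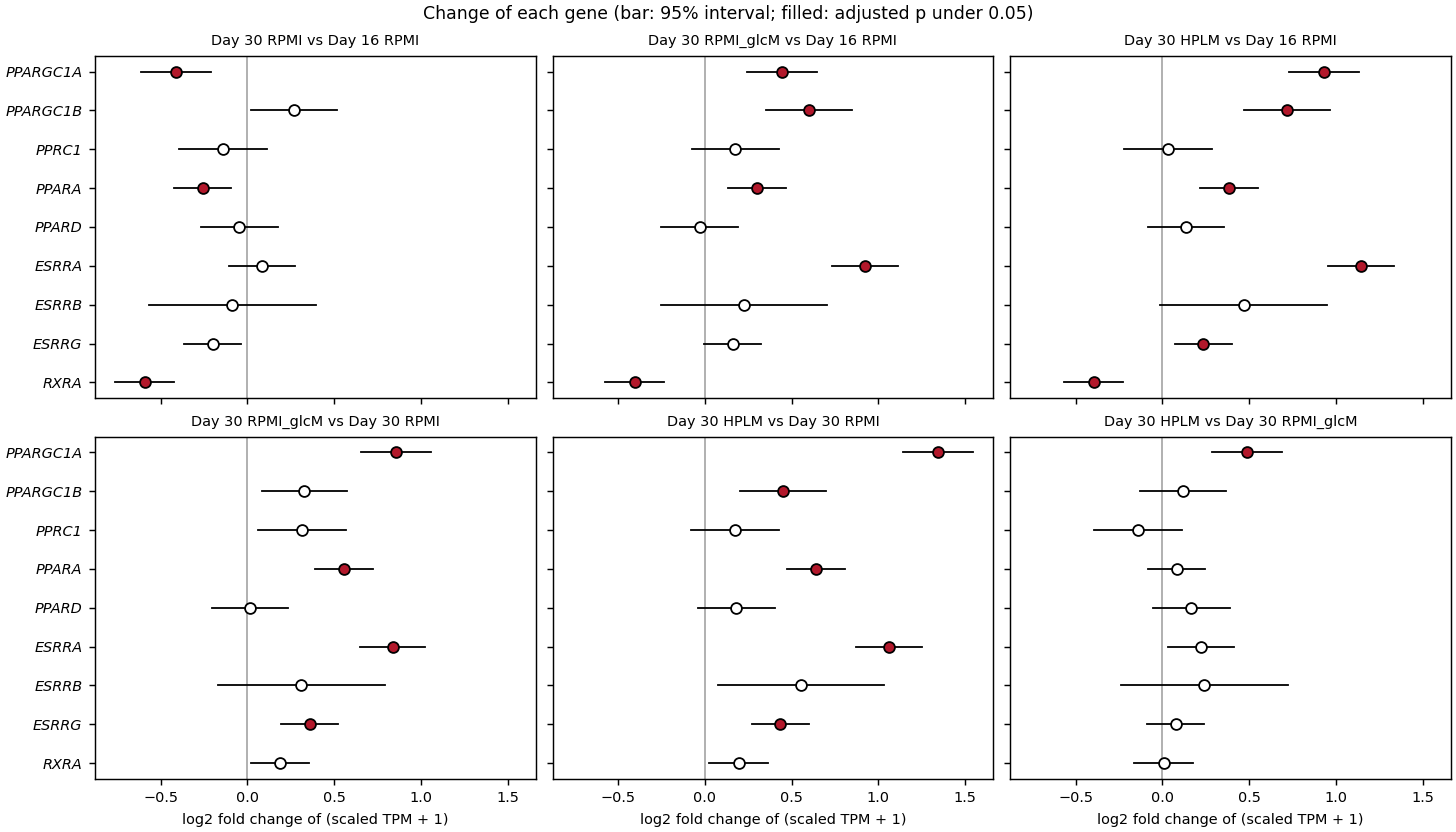
Log2 fold change of (scaled TPM + 1) with its 95% interval for the 9 tested regulators in the 6 comparisons, with filled points for adjusted p under 0.05. The filled points of PPARGC1A and ESRRA lie between 0.84 and 1.34 in both comparisons of a Day 30 medium with Day 30 RPMI/B27, and RXRA is filled and below 0 in the 3 comparisons with Day 16.

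PPARGC1A encodes PGC-1α, the founding coactivator of the family. Its scaled TPM was 42.6, 44.6, 44.2 and 41.0 in the 4 wells of Day 16 RPMI/B27 and 33.0, 27.9, 36.5 and 31.7 in Day 30 RPMI/B27. In RPMI_glcM/B27 it was 56.8, 65.7, 58.0 and 55.6, and in HPLM/B27 71.5, 79.4, 98.0 and 85.7. The 4 groups did not overlap, with Day 30 RPMI/B27 lowest, then Day 16, then RPMI_glcM/B27, and HPLM/B27 highest. From Day 16 to Day 30 in RPMI/B27 it fell by 0.41 on the log2 scale (SE 0.09, limma adjusted p = 0.00701), from 43.1 ± 1.66 to 32.3 ± 3.55 (SD, n = 4). Over the same time it rose in RPMI_glcM/B27 to 59.0 ± 4.55 (log2 fold change 0.44, SE 0.09, limma adjusted p = 0.00273) and in HPLM/B27 to 83.7 ± 11.1 (0.93, SE 0.09, limma adjusted p = 4.83e-06). On the deposited TPM without scaling the rise in RPMI_glcM/B27 was 0.19 and no longer passed (limma adjusted p = 0.439). In scaled TPM the change ran down in one medium and up in the other two.

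Set against Day 30 RPMI/B27, PPARGC1A was higher by 0.85 on the log2 scale in RPMI_glcM/B27 (95% interval 0.65 to 1.06, limma adjusted p = 7.55e-05) and by 1.34 in HPLM/B27 (1.14 to 1.55, limma adjusted p = 1.44e-06). It ranked 79th from the highest fold change among 16122 genes in the second of these comparisons and 243rd in the first. Both differences passed under each of the alternatives computed and with each library left out. The difference between HPLM/B27 and RPMI_glcM/B27 was 0.49 (0.29 to 0.69, limma adjusted p = 0.0171). That call was lost without RPMI_glcM/B27 replicate 1, 3 or 4 or HPLM/B27 replicate 4, with adjusted p between 0.0110 and 0.0584 over the libraries left out in turn, and it was also lost on unscaled TPM (0.41, limma adjusted p = 0.597), without mitochondrial, ribosomal and RN7SK RNA (0.0579) and with the 2 groups fitted alone (0.0586).

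PPARGC1B encodes PGC-1β, the close relative of PGC-1α with a role in mitochondrial respiration. It stood at 5.79, 7.25, 6.12 and 6.20 scaled TPM on Day 16, and at 7.64, 7.16, 9.60 and 7.12 in Day 30 RPMI/B27. In RPMI_glcM/B27 it stood at 8.94, 11.9, 9.64 and 10.1, and in HPLM/B27 at 9.09, 12.3, 12.4 and 10.7. The wells of both changed media lay above all Day 16 wells, and each overlapped Day 30 RPMI/B27 through replicate 3 of the latter. Against Day 16 it rose from 6.34 ± 0.63 to 10.1 ± 1.25 (SD, n = 4) in RPMI_glcM/B27 (0.60, SE 0.12, limma adjusted p = 0.00134) and to 11.1 ± 1.56 in HPLM/B27 (0.72, SE 0.12, limma adjusted p = 0.00033). On unscaled TPM these differences were 0.37 and 0.42, and neither passed (limma adjusted p = 0.149 and 0.0876). The Day 30 RPMI/B27 change was 0.27 (SE 0.12, limma adjusted p = 0.127), of opposite sign to that of PPARGC1A. Its difference from Day 30 RPMI/B27 was 0.45 in HPLM/B27 (limma adjusted p = 0.0196) and 0.33 in RPMI_glcM/B27 (0.0808). The first call was lost without Day 30 RPMI/B27 replicate 2 or 4 or HPLM/B27 replicate 2 or 3 (adjusted p up to 0.0634), on unscaled TPM (0.226) and with the 2 groups fitted alone (0.0729). The second difference passed without Day 30 RPMI/B27 replicate 3 (adjusted p = 0.0265). HPLM/B27 exceeded RPMI_glcM/B27 by 0.12 (limma adjusted p = 0.727).

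PPRC1, the coactivator known for its growth-factor response, did not pass in any comparison. Its wells ran from 5.85 to 7.99 scaled TPM on Day 16 and 5.32 to 8.21 in Day 30 RPMI/B27, beside 7.22 to 9.23 in RPMI_glcM/B27 and 6.64 to 8.04 in HPLM/B27, and all groups overlapped. Its largest difference was 0.32 between RPMI_glcM/B27 and Day 30 RPMI/B27 (95% interval 0.06 to 0.57, limma adjusted p = 0.101), which passed without Day 30 RPMI/B27 replicate 3 (0.0194).

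ESRRA encodes ERRα, an orphan receptor that both partners PGC-1α and is known as one of its targets. It stood at 7.0, 8.43, 7.73 and 6.21 scaled TPM on Day 16 and at 7.69, 6.86, 8.36 and 8.43 in Day 30 RPMI/B27. It stood at 13.6, 15.9, 14.1 and 15.5 in RPMI_glcM/B27 and at 18.3, 16.6, 16.7 and 17.9 in HPLM/B27. The RPMI/B27 wells of both days overlapped throughout, and every well of the changed media lay above them by a gap wider than the spread inside any group. The change over 2 weeks in RPMI/B27 was 0.09 on the log2 scale (95% interval −0.10 to 0.28, limma adjusted p = 0.569). Against Day 16 it rose from 7.35 ± 0.96 to 14.8 ± 1.11 (SD, n = 4) in RPMI_glcM/B27 (0.92, SE 0.09, limma adjusted p = 3.08e-06) and to 17.4 ± 0.82 in HPLM/B27 (1.15, SE 0.09, limma adjusted p = 3.97e-07).

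ESRRA was higher than in Day 30 RPMI/B27 by 0.84 in RPMI_glcM/B27 (95% interval 0.65 to 1.03, limma adjusted p = 5.81e-05) and by 1.06 in HPLM/B27 (0.87 to 1.25, limma adjusted p = 6.31e-06), ranking 256th and 147th of 16122 genes from the highest fold change. These calls held under each alternative and each library left out. HPLM/B27 exceeded RPMI_glcM/B27 by 0.22 (0.03 to 0.41, limma adjusted p = 0.265), and although all HPLM/B27 wells lay above all RPMI_glcM/B27 wells, the difference did not pass. The 3′ end of ESRRA overlaps TRMT112 on the opposite strand, and whether reads were counted by strand is not given in the sources used here. TRMT112, named for its position after values were seen, averaged 20.2 scaled TPM on Day 16 and 25.4 in Day 30 RPMI/B27, beside 22.4 in RPMI_glcM/B27 and 19.2 in HPLM/B27. It differed from Day 30 RPMI/B27 by −0.17 in RPMI_glcM/B27 (limma adjusted p = 0.467) and −0.41 in HPLM/B27 (0.0649), the opposite sign to ESRRA.

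ESRRG encodes ERRγ, a receptor of highly oxidative tissues. It stood at 25.4, 26.3, 24.9 and 26.2 scaled TPM on Day 16 and at 25.0, 24.2, 18.9 and 21.3 in Day 30 RPMI/B27. It stood at 29.8, 26.8, 29.9 and 28.8 in RPMI_glcM/B27 and at 29.1, 31.8, 31.7 and 29.2 in HPLM/B27. The wells of both changed media lay above those of both RPMI/B27 groups and overlapped each other. Compared with Day 30 RPMI/B27 it was higher by 0.36 in RPMI_glcM/B27 (22.4 ± 2.79 against 28.8 ± 1.43, SD, n = 4, limma adjusted p = 0.00732) and by 0.44 in HPLM/B27 (30.5 ± 1.51, limma adjusted p = 0.00182). Both calls were lost on unscaled TPM (limma adjusted p = 0.287 and 0.281). The first was also lost without mitochondrial, ribosomal and RN7SK RNA (0.089) and with the 2 groups fitted alone (0.0578), and its difference was 0.22 without both libraries of high RNR1 (0.048). Against Day 16, HPLM/B27 was higher by 0.24 (SE 0.08, limma adjusted p = 0.0337), a call that was lost without any 1 of 5 libraries (Day 16 replicate 1, 3 or 4, HPLM/B27 replicate 2 or 3; adjusted p 0.0405 to 0.0863 over all left-out libraries) and without mitochondrial, ribosomal and RN7SK RNA (0.12, adjusted p = 0.564), and whose sign turned on unscaled TPM (−0.09). The difference between RPMI_glcM/B27 and Day 16 was 0.16 (limma adjusted p = 0.138). In these comparisons the ESRRG values were smaller in log2 units than those of ESRRA. From Day 16 to Day 30 in RPMI/B27, ESRRG changed by −0.20 (limma adjusted p = 0.0874). That change passed in 1 of 11 alternatives (limma-voom, adjusted p = 0.0478) and without Day 30 RPMI/B27 replicate 1 (limma adjusted p = 0.0382). HPLM/B27 exceeded RPMI_glcM/B27 by 0.08 (limma adjusted p = 0.736).

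ESRRB, a family member known best from pluripotent cells and the inner ear, was the least abundant ERR and the least precisely measured. Its wells ran from 1.08 to 3.34 scaled TPM on Day 16 and 1.22 to 2.45 in Day 30 RPMI/B27, beside 1.60 to 2.99 in RPMI_glcM/B27 and 2.23 to 4.24 in HPLM/B27, and all groups overlapped. No comparison passed. The largest difference was 0.55 between HPLM/B27 and Day 30 RPMI/B27 (95% interval 0.07 to 1.03, limma adjusted p = 0.123), and the difference of 0.47 from Day 16 passed without Day 16 replicate 2 (adjusted p = 0.0276).

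PPARA encodes PPARα, the fatty acid sensing receptor of heart and liver. It stood at 12.2, 13.7, 11.0 and 11.6 scaled TPM on Day 16 and at 11.3, 9.49, 9.43 and 9.75 in Day 30 RPMI/B27. It stood at 14.5, 15.9, 14.9 and 15.3 in RPMI_glcM/B27 and at 16.1, 16.1, 17.6 and 14.6 in HPLM/B27. The wells of the changed media lay above all RPMI/B27 wells and overlapped each other, and the first well of Day 30 RPMI/B27 lay within the Day 16 range. Relative to Day 30 RPMI/B27 (9.99 ± 0.86, SD, n = 4) it was higher by 0.56 in RPMI_glcM/B27 (15.1 ± 0.60, limma adjusted p = 0.000442) and by 0.64 in HPLM/B27 (16.1 ± 1.22, limma adjusted p = 0.000123), and on unscaled TPM neither difference passed (limma adjusted p = 0.0735 and 0.067). Against Day 16 (12.1 ± 1.12) the differences were 0.30 (limma adjusted p = 0.0092) and 0.38 (0.00191). These calls were lost on unscaled TPM, where the differences were 0.056 and 0.067 (limma adjusted p = 0.846 and 0.797), and without mitochondrial, ribosomal and RN7SK RNA (0.261 and 0.122). In RPMI/B27 it fell by 0.26 from Day 16 to Day 30 (limma adjusted p = 0.0327). That call was lost without Day 16 replicate 1 or 2 or Day 30 RPMI/B27 replicate 2, 3 or 4, and without both libraries of high RNR1 (adjusted p = 0.176). It was also lost with the 2 groups fitted alone (adjusted p = 0.114) and with RNR1 as a covariate (0.179, and 0.0991 by limma-voom). PPARA in HPLM/B27 exceeded that in RPMI_glcM/B27 by 0.08 (limma adjusted p = 0.714).

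PPARD encodes PPARδ, the most widely expressed PPAR. Its wells ran from 9.53 to 12.5 scaled TPM on Day 16 and 9.49 to 12.1 in Day 30 RPMI/B27, beside 10.7 to 11.3 in RPMI_glcM/B27 and 10.5 to 14.8 in HPLM/B27. All groups overlapped and no comparison passed. The difference between RPMI_glcM/B27 and Day 30 RPMI/B27 was 0.01 (95% interval −0.21 to 0.23, limma adjusted p = 0.952), and the largest was 0.18 between HPLM/B27 and Day 30 RPMI/B27 (−0.04 to 0.40, limma adjusted p = 0.28).

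RXRA encodes RXRα, which pairs with each PPAR on DNA. It stood at 6.69, 6.56, 5.83 and 6.04 scaled TPM on Day 16 and at 3.76, 4.18, 3.42 and 3.97 in Day 30 RPMI/B27. It stood at 5.02, 4.42, 4.37 and 4.23 in RPMI_glcM/B27 and at 4.58, 4.64, 4.14 and 4.75 in HPLM/B27. Every Day 30 well lay below every Day 16 well. From 6.28 ± 0.41 (SD, n = 4) it fell by 0.59 in RPMI/B27 to 3.83 ± 0.32 (limma adjusted p = 0.000117), fell by 0.40 in RPMI_glcM/B27 to 4.51 ± 0.35 (limma adjusted p = 0.00155) and fell by 0.40 in HPLM/B27 to 4.53 ± 0.27 (limma adjusted p = 0.00179). These calls held under each alternative and each library left out. The Day 30 media differed by 0.19 (RPMI_glcM/B27, limma adjusted p = 0.144) and 0.20 (HPLM/B27, 0.125) from RPMI/B27, neither of which passed.

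Ratios of paired relatives do not depend on the scaling of a library. With 4 wells against 4, the smallest p that the two-sided exact permutation test can give is 0.0286, and over the 18 tests of 3 ratios none passed after adjustment, where the 10 that reached that p had an adjusted p of 0.0514. The ratio of PPARGC1A to PPARGC1B was 7.36, 6.15, 7.23 and 6.61 in the Day 16 wells and 4.32, 3.90, 3.80 and 4.45 in Day 30 RPMI/B27. It was 6.36, 5.54, 6.01 and 5.49 in RPMI_glcM/B27 and 7.87, 6.49, 7.88 and 8.01 in HPLM/B27. The Day 30 RPMI/B27 wells lay below all others, by −0.73 on the log2 scale from Day 16, and HPLM/B27 lay above RPMI_glcM/B27 in every well (0.37). The Day 16 and HPLM/B27 wells overlapped (0.14, exact permutation p = 0.2).

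The ratio of ESRRG to ESRRA was 3.54 ± 0.497 (SD, n = 4) on Day 16 and 2.89 ± 0.594 in Day 30 RPMI/B27, beside 1.97 ± 0.235 in RPMI_glcM/B27 and 1.76 ± 0.169 in HPLM/B27. Both changed media lay below both RPMI/B27 groups in every well, by −0.85 and −1.01 on the log2 scale from Day 16 and by −0.54 and −0.70 from Day 30 RPMI/B27 (exact permutation p = 0.0286 each). ESRRG remained the more abundant transcript of the pair in all 16 libraries. The ratio of PPARA to PPARD was 1.08 ± 0.112 on Day 16 and 0.929 ± 0.190 in Day 30 RPMI/B27, beside 1.38 ± 0.0783 in RPMI_glcM/B27 and 1.31 ± 0.256 in HPLM/B27. RPMI_glcM/B27 lay above both RPMI/B27 groups in every well, and HPLM/B27 overlapped both of them.

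**Figure D3:**
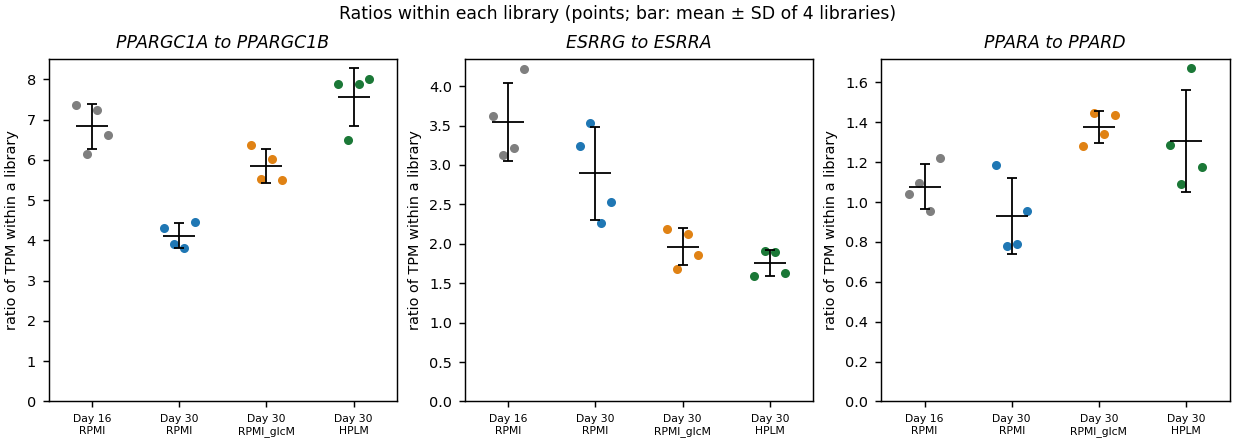
Ratio of TPM within each library for PPARGC1A to PPARGC1B, ESRRG to ESRRA and PPARA to PPARD, with points for libraries and bars for mean ± SD of 4. The ESRRG to ESRRA ratio runs from 3.12 to 4.21 on Day 16 and from 1.59 to 1.91 in HPLM/B27.

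Among the partners of these regulators, RXRG had the largest changes. Of 16 coactivators, corepressors and receptor partners, 14 were tested, and PERM1 and RXRB were below 1 TPM (0.0375 and 0.0203). RXRB lies in the major histocompatibility complex, which has near-identical haplotype copies, so its level is uncertain. RXRG, the retinoid X receptor of muscle, was at 21.1 ± 0.546 scaled TPM (SD, n = 4) on Day 16 and 6.74 ± 1.39 in Day 30 RPMI/B27, beside 12.1 ± 2.38 in RPMI_glcM/B27 and 12.9 ± 1.26 in HPLM/B27. It fell by 1.53, 0.78 and 0.67 on the log2 scale from Day 16 in these media and was higher than in Day 30 RPMI/B27 by 0.76 and 0.86 (limma adjusted p between 2.09e-06 and 0.00227). Like RXRA it was lower at Day 30 in every medium, and its Day 30 RPMI/B27 wells were the lowest.

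Of the 14 partners, 1 rose and 4 fell from Day 16 to Day 30 in RPMI/B27, and 1 rose and 3 fell in each changed medium. Those that passed were 35.7%, 28.6% and 28.6% of the tested partners, beside 17.5%, 27.5% and 25.3% of all genes, so that in the changed media the share was near that of all genes. The acetyltransferase EP300 and the corepressor NCOR1 fell in all 3 (by 0.27 to 0.30 and by 0.22 to 0.30), and the coactivator NCOA1 rose in RPMI_glcM/B27 and HPLM/B27 (0.25 and 0.21), while NCOA3 rose in RPMI/B27 (0.26). Against Day 30 RPMI/B27, 5 partners were higher in RPMI_glcM/B27 and 3 in HPLM/B27 (35.7% and 21.4%, beside 12.1% and 12.9% of all genes), none lower. These included LPIN1, a lipin that acts with PGC-1α (0.33 and 0.28), and the acetyltransferase CREBBP (0.33 and 0.27). With each comparison fitted on its own 2 groups, these counts were 2 and 1. Between HPLM/B27 and RPMI_glcM/B27, 0 of 14 passed by limma, 0 had an unadjusted p under 0.05 and 0 passed by limma-voom on read counts. Of all genes, 1.63% passed there by limma. The median of the partners was −0.05, and 3 of 14 lay above 0.

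The 10 mitochondrial biogenesis factors, which include NRF1, TFAM, the mitochondrial transcription factors TFB1M and TFB2M and the polymerase POLRMT, held no gene that passed by limma or by limma-voom in any of the 6 comparisons. Of the 10, 1 had an unadjusted p under 0.05 in Day 30 RPMI/B27 against Day 16 and 0 in each of the others. Their median log2 fold change ran from −0.07 to 0.11. TFAM, which packages and transcribes mitochondrial DNA, averaged 22.9 scaled TPM on Day 16 and 21.6 in Day 30 RPMI/B27, beside 23.4 in RPMI_glcM/B27 and 21.4 in HPLM/B27. NRF1, whose element stands in the ESRRA and PPARA sequences above, averaged 6.13, 6.63, 6.49 and 6.02 scaled TPM in the same order.

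Of 16 upstream regulators of PPARGC1A, 4 rose and 1 fell from Day 16 to Day 30 in RPMI/B27, and 4 rose and 2 fell in each changed medium. Those that passed were 31.2%, 37.5% and 37.5% of the list, beside 17.5%, 27.5% and 25.3% of all genes. PRKAA2, the muscle catalytic subunit of AMP-activated protein kinase, rose by 0.64 in RPMI/B27, by 0.52 in RPMI_glcM/B27 and by 0.63 in HPLM/B27, from 28.9 ± 2.62 scaled TPM (SD, n = 4). MEF2C, a transcription factor of muscle differentiation, fell by 1.07, 1.18 and 0.83 from 57.5 ± 2.5, and MEF2A rose by 0.25 in RPMI/B27. The kinase subunit PRKAB2 fell in RPMI_glcM/B27 and HPLM/B27 (by 0.31 and 0.39). The CREB coactivator CRTC3 rose in all 3 media (0.26, 0.35 and 0.53) and CRTC2 in RPMI_glcM/B27 and HPLM/B27 (0.62 and 0.61). Against Day 30 RPMI/B27, 0 of 16 passed in RPMI_glcM/B27 by limma and by limma-voom (2 had an unadjusted p under 0.05), and CRTC3 passed by limma in HPLM/B27 (0.27, limma adjusted p = 0.0382), where 5 of 16 passed by limma-voom and 5 had an unadjusted p under 0.05. MEF2C passed by limma between HPLM/B27 and RPMI_glcM/B27 (0.35, limma adjusted p = 0.0384), where 1 of 16 passed by limma-voom. Of all genes, 12.1%, 12.9% and 1.63% passed by limma in these 3 comparisons, in the order given. By limma-voom 1985, 2501 and 271 of 15423 genes passed.

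Of 24 PPAR targets, 18 were tested. Those below 1 TPM on average included PDK4, CPT1B, FABP4, LPL and PLIN5 (0.858, 0.06, 0.0355, 0.878 and 0.519), so the muscle carnitine palmitoyltransferase CPT1B and the PPAR-responsive kinase PDK4, which are prominent in adult heart, could not be assessed. FABP3, the heart fatty acid binding protein, was the most abundant target named here and rose in every medium from 157 ± 13.0 scaled TPM (SD, n = 4) on Day 16 to 244 ± 40.6 in RPMI/B27, to 374 ± 29.5 in RPMI_glcM/B27 and to 424 ± 30.2 in HPLM/B27. Both changed media exceeded Day 30 RPMI/B27 (0.62 and 0.81, limma adjusted p = 0.00183 and 0.000212). The fatty acid transporter CD36 rose by 0.82, 0.85 and 0.83 in the 3 media. CPT1A, the outer mitochondrial gate of fatty acid oxidation, was higher than in Day 30 RPMI/B27 by 0.64 and 0.59.

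As a group, 2 PPAR targets rose and 1 fell in RPMI/B27 from Day 16, 7 rose and 2 fell in RPMI_glcM/B27, and 8 rose and 1 fell in HPLM/B27. The 3 targets that passed in RPMI/B27 were 16.7% of those tested, near the 17.5% of all genes, and the 9 in each changed medium were 50%, beside 27.5% and 25.3%. The uncoupling protein gene UCP2 fell in RPMI/B27 and RPMI_glcM/B27 (by 0.79 and 0.88), and CPT2, the inner membrane partner of CPT1A, fell in RPMI_glcM/B27 and HPLM/B27 (by 0.41 and 0.47). ANGPTL4, a secreted lipase inhibitor, rose in HPLM/B27 (0.87). Against Day 30 RPMI/B27, 5 of 18 were higher in each changed medium and none lower, including UCP3 in RPMI_glcM/B27 (0.66) and the electron transfer dehydrogenase ETFDH in HPLM/B27 (0.50). These were 27.8% of the tested targets, beside 12.1% and 12.9% of all genes, and by limma-voom 5 passed in RPMI_glcM/B27 and 9 passed in HPLM/B27. The medians were 0.12 and 0.26. Between HPLM/B27 and RPMI_glcM/B27, 0 of 18 passed by limma or by limma-voom, and 4 had an unadjusted p under 0.05. Of all genes, 1.63% passed there by limma. The median of the PPAR targets was 0.11, and 11 of 18 lay above 0. On unscaled TPM, 1 of 18 passed in each comparison with Day 30 RPMI/B27.

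Most ERR targets were higher in the changed media than in RPMI/B27 of either day. All 20 were tested. From Day 16 to Day 30 in RPMI/B27, 2 rose and 5 fell, with a median of −0.02, beside 8.62% and 8.91% of all genes. Against Day 16, 12 rose in RPMI_glcM/B27 and 16 rose in HPLM/B27 (medians of 0.40 and 0.48, beside 13.4% and 12.9% of all genes), and none was called lower. Against Day 30 RPMI/B27, again 12 and 16 of 20 were higher and none lower, with medians of 0.39 and 0.52, beside 6.17% and 7.05% of all genes. On unscaled TPM the called ERR targets were 5 and 9 of 20 in these last comparisons. Between HPLM/B27 and RPMI_glcM/B27, 0 of 20 passed by limma or by limma-voom, and 5 had an unadjusted p under 0.05. Of all genes, 1.63% passed there by limma, and 2220 of 16122 had an unadjusted p under 0.05. The median of the ERR targets was 0.16, beside 0.00104 for all genes, and 19 of 20 lay above 0.

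CKM, the muscle creatine kinase, averaged 126 ± 10.2 scaled TPM (SD, n = 4) on Day 16 and 125 ± 22.9 in Day 30 RPMI/B27, beside 308 ± 10.9 in RPMI_glcM/B27 and 364 ± 47.5 in HPLM/B27. Its log2 fold changes from Day 30 RPMI/B27 were 1.31 and 1.54 (limma adjusted p = 1.76e-05 and 2.14e-06). The mitochondrial creatine kinase CKMT2 and myoglobin (MB) rose also in RPMI/B27 (1.02 and 0.62), and CKMT2 rose by 1.21 and 1.41 in RPMI_glcM/B27 and HPLM/B27. The mitochondrial enzymes citrate synthase (CS), ATP synthase β (ATP5F1B) and malate dehydrogenase (MDH2) fell over 2 weeks in RPMI/B27, by 0.45, 0.42 and 0.38. ATP5F1B was higher than in Day 30 RPMI/B27 by 0.54 in RPMI_glcM/B27. IDH3A, of the citric acid cycle, was higher by 0.52 and 0.85, and the ADP/ATP carrier SLC25A4 by 0.79 in HPLM/B27. The cytochrome oxidase subunit COX6A2 rose by 1.37 from Day 16 in HPLM/B27.

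**Figure D4:**
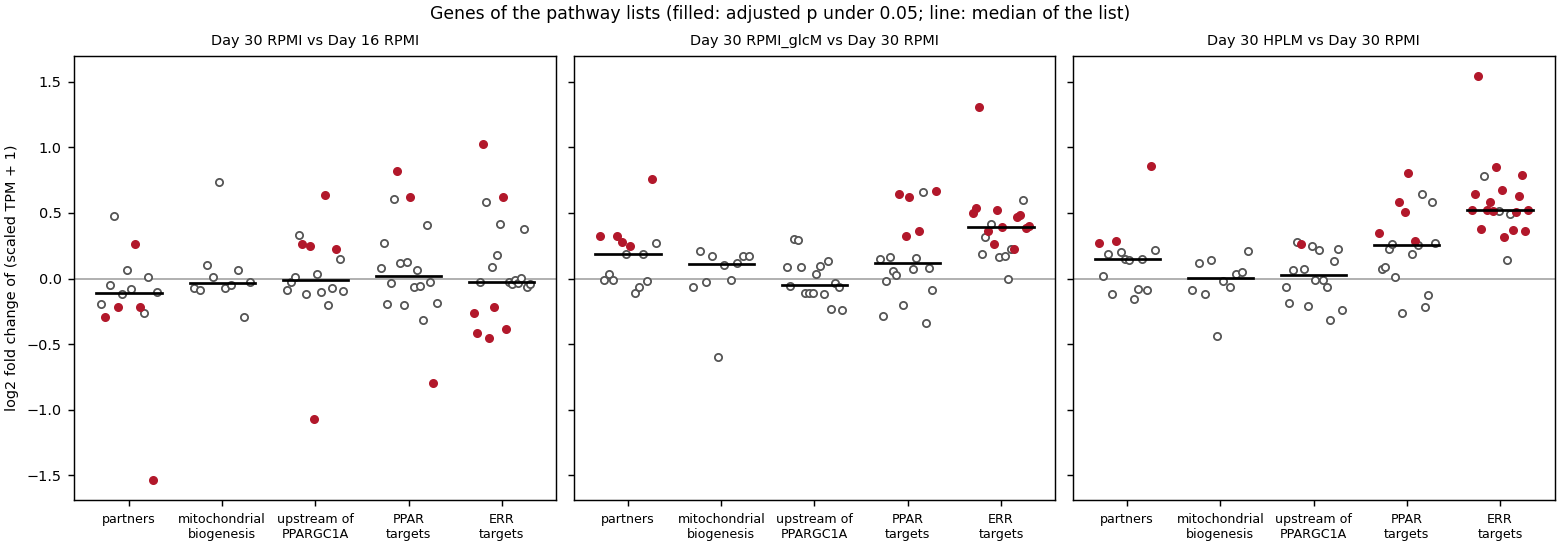
Log2 fold change of (scaled TPM + 1) of each tested gene of the 5 pathway lists in 3 comparisons (Day 30 RPMI/B27 against Day 16, and each changed medium against Day 30 RPMI/B27), with filled points for adjusted p under 0.05 and a line at the median of each list. The ERR targets have medians of 0.39 and 0.52 in RPMI_glcM/B27 and HPLM/B27 against Day 30 RPMI/B27, and the mitochondrial biogenesis factors have no filled point.

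Likeness of pattern was measured by Pearson's r of log2(scaled TPM + 1) over the 16 libraries among 9752 genes of at least 5 TPM. The points share the 4 groups and the scaling, and no p is given. The genes most like PPARGC1A were ABLIM1 (r = 0.962), HK2 (0.961), which encodes a hexokinase, and OPA1 (0.950), a fusion protein of the inner mitochondrial membrane. Those most like ESRRA were CKM (0.970), UBAC1 (0.969) and SDHA (0.968), a subunit of succinate dehydrogenase, so that 2 of the 3 are on the ERR target list. ESRRG was most like PPP1R15B (0.913), IGDCC4 (0.902) and ROR2 (0.900), and the genes most like PPARA included EPS15L1 (0.980) and RRAGD (0.949). Among the regulators, the highest r was 0.916 between PPARGC1A and PPARA, followed by 0.894 between PPARA and ESRRG and 0.890 between PPARGC1A and ESRRA, and the lowest was −0.540 between PPARGC1B and RXRA.

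Markers of other cell types moved with the media as well. All 8 cardiomyocyte markers were tested, and their summed level was 9090 to 12621 scaled TPM on Day 16 and 9815 to 19419 in Day 30 RPMI/B27, beside 11958 to 14458 in RPMI_glcM/B27 and 12001 to 15437 in HPLM/B27. Of the 7 hepatic endoderm markers 5 were tested, and their sum of 428 to 465 in Day 30 RPMI/B27 compared with 90.2 to 224 in RPMI_glcM/B27 and 70.5 to 193 in HPLM/B27 (306 to 608 on Day 16). In the Day 30 comparisons with RPMI/B27, 4 and 5 of these 5 were lower, whereas the defining factor FOXA2 had at most 7 reads in any library. Of 8 fibroblast markers 6 were tested, and their sum was 229 to 333 on Day 16 and 193 to 266 in Day 30 RPMI/B27, beside 135 to 155 in RPMI_glcM/B27 and 136 to 197 in HPLM/B27, and 4 of 6 were lower in each changed medium than in Day 30 RPMI/B27. The part of these cells in the differences of PPARGC1A, ESRRA, ESRRG and PPARA was not tested.

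The remaining lists were low or did not separate the Day 30 media. Of 4 smooth muscle markers 3 were tested, none passed by limma in any comparison, and MYH11 had 0 reads in all libraries, with sums of 242 to 645, 225 to 1139, 273 to 300 and 256 to 516 scaled TPM in the same order of groups. KDR was the only tested one of 5 endothelial markers and was lower at Day 30 in each medium, with list sums of 36.5 to 46.1 on Day 16 and 16.8 to 34.8 at Day 30. VWF was above 0 in HPLM/B27 only, at no more than 0.163 scaled TPM. No adipocyte marker of 6 was tested (sums of 0.453 to 2.04 in all), beside the low PPARG. LIN28A was the only tested one of 5 pluripotency markers, with list sums of 3.12 to 3.56 on Day 16 and 0.399 to 1.85 at Day 30. Without both Day 30 RPMI/B27 libraries of high RNR1, PPARGC1A, ESRRA, PPARA and ESRRG still passed in both changed media against Day 30 RPMI/B27.

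**Figure D5:**
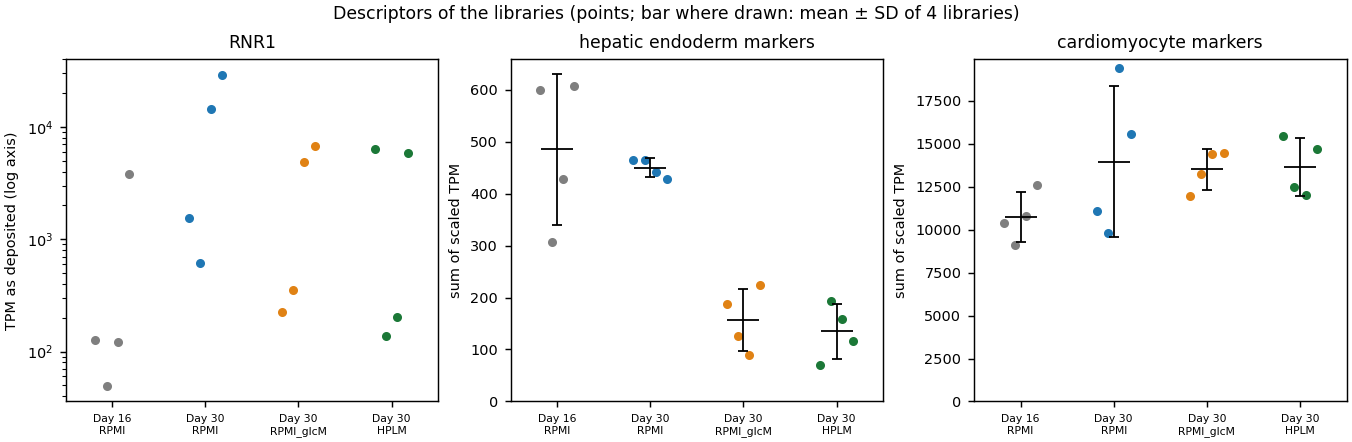
RNR1 (TPM as deposited, log axis) and the summed scaled TPM of hepatic endoderm and of cardiomyocyte markers in each library, with points for libraries. Replicates 3 and 4 of Day 30 RPMI/B27 stand at 14387 and 29276 TPM of RNR1, and the hepatic endoderm sums of RPMI_glcM/B27 and HPLM/B27 lie below those of both RPMI/B27 groups.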

How the data were processed

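Total RNA from 16 wells was sequenced with a stranded total RNA kit. Per the labels and the study's methods, the authors aligned reads to hg38 with decoy sequences (STAR 2.5.3a), counted them per gene (featureCounts 2.0.3) and tested counts in R 4.1.3, versions being those of the submitters' processing notes. The deposited file holds TPM values per gene and library. The gene annotation, the gene lengths and the counting strand are not given in the sources used here.

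Read counts were derived from the deposited TPM for all 31047 genes above 0. For each gene the smallest whole numbers in proportion to its values were taken (within 0.002 reads, or wider for high counts). A gene above 0 in 1 library only is given 1 read by this rule, so counts of such genes can be too low. On simulated data of genes averaging 10 reads or more, 15403 of 15404 genes were recovered. The counts gave the depth and an alternative test by limma-voom (TMM factors, genes averaging 10 reads or more). For the main test, TPM was divided by a median-of-ratios factor over 14918 genes, 1 was added, and log2 values of 16122 genes (mean TPM of 1 or more) were fitted by limma 3.58.1 with a mean-variance trend (R 4.3.3), the 4 groups being fitted together and p-values adjusted by Benjamini and Hochberg over every tested gene, with a threshold of 0.05. The methods name a negative binomial count model, whereas limma was used because the deposited unit is TPM. Ratios were compared by exact permutation tests. Scripts were tested on simulated data. Python 3.11.15 with pandas 2.3.3, numpy 2.4.6, scipy 1.17.1 and matplotlib 3.10.9 was used.

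The members and the gene lists were chosen with earlier results of these data known. All 10 regulators are named in every comparison, and of each pathway list up to 3 passing genes per direction with the largest change. The 3 genes most like PPARGC1A, ESRRA, ESRRG and PPARA are named too, except that a few single-gene values are not reported here, as are RNR1, RNR2, RN7SK and the cell type markers (cardiomyocyte, fibroblast, smooth muscle, endothelial, hepatic endoderm, adipocyte and pluripotency). Replicate libraries all differed by more than sampling noise. Alternatives were TPM as deposited, TPM without mitochondrial, ribosomal and RN7SK RNA, a pseudocount of 0.1, other filters (every gene above 0, or a mean of at least 5 TPM), fits of 2 groups, a replicate block, limma-voom, RNR1 as a covariate, and each library left out. Leaving out both Day 30 RPMI/B27 libraries of high RNR1, and limma-voom with RNR1 as a covariate, were chosen after seeing the data. Promoter sequences, gene positions and exons came from RefSeq and GENCODE tables of GRCh38.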

Additional observations from a re-analysis of the deposited data

Results flagged for a closer look

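Because the 4 groups share the Day 16 starting point, the change from Day 16 in one medium minus that in another equals the difference between the Day 30 groups, and limma tested it directly. These changes differed between RPMI_glcM/B27 and RPMI/B27 for PPARGC1A (0.85 on the log2 scale), ESRRA (0.84), PPARA (0.56) and ESRRG (0.36). They differed between HPLM/B27 and RPMI/B27 for PPARGC1A (1.34), ESRRA (1.06), PPARA (0.64), PPARGC1B (0.45) and ESRRG (0.44). Between HPLM/B27 and RPMI_glcM/B27 they differed for PPARGC1A (0.49). In PPARGC1A and PPARA the change from Day 16 passed as a fall in RPMI/B27 and as a rise in both changed media, whereas in ESRRA the RPMI/B27 change did not pass. On unscaled TPM both PPARA rises and the PPARGC1A rise in RPMI_glcM/B27 no longer passed. The PPARA fall was lost without Day 16 replicate 1 or 2 or Day 30 RPMI/B27 replicate 2, 3 or 4. No library stood far from its group for any of the 10 regulators in the 4 groups by Dixon's test.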

How the results depend on the processing

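Of the 24 regulator results that passed the test, each was recomputed with each library left out (192 values, of which 174 still passed, 18 no longer did and 0 changed sign) and under the other alternatives (261 values, of which 237 still passed, 23 no longer did and 1 changed sign). The calls that ended are named beside their results. The deposited TPM without scaling moved the median of all genes by −0.28, −0.22 and −0.29 against Day 16 in Day 30 RPMI/B27, RPMI_glcM/B27 and HPLM/B27, and turned the split of higher and lower genes from 1389 and 1437 to 336 and 2867, from 2156 and 2282 to 538 and 2862, and from 2074 and 2012 to 483 and 3605. Without mitochondrial, ribosomal and RN7SK RNA these splits were 742 and 2083, 1174 and 2635, and 1170 and 2459. In the Day 30 comparisons the higher and lower genes were 995 and 950 (RPMI_glcM/B27 against RPMI/B27), 1137 and 946 (HPLM/B27 against RPMI/B27) and 161 and 101 (HPLM/B27 against RPMI_glcM/B27), and 219 and 135, 244 and 144, and 8 and 3 on unscaled TPM. The totals of these comparisons, 1945, 2083 and 262, became 354, 388 and 11 on unscaled TPM, and 1201, 1325 and 102 without mitochondrial, ribosomal and RN7SK RNA. They became 1143 and 1160 for the first 2 with only the 2 groups in the fit, and the last became 422 without both libraries of high RNR1 and 529 by limma-voom with RNR1 as a covariate, both chosen after seeing the data. The last was 130 to 257 with a library left out.

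On unscaled TPM, the regulators called were 2 and 3 against Day 16 (RPMI_glcM/B27 and HPLM/B27), 2 and 2 against Day 30 RPMI/B27, and 0 between the changed media. This last count was also 0 without mitochondrial, ribosomal and RN7SK RNA and with only the 2 groups in the fit, and 0 to 1 with a library left out. Signs turned on unscaled TPM for PPARGC1B (−0.024) and ESRRA (−0.21) in Day 30 RPMI/B27 against Day 16, PPRC1 (−0.056) and ESRRG (−0.094) in RPMI_glcM/B27 against Day 16, PPRC1 (−0.26), PPARD (−0.18) and ESRRG (−0.091) in HPLM/B27 against Day 16, and RXRA between the changed media (−0.056). They turned without mitochondrial, ribosomal and RN7SK RNA for PPRC1 in HPLM/B27 against Day 16 (−0.076), ESRRA in Day 30 RPMI/B27 against Day 16 (−0.041) and RXRA between the changed media (−0.0021), and by limma-voom for RXRA (−0.0055). With RNR1 as a covariate they turned for PPRC1 in HPLM/B27 against Day 16 (−0.017), PPARD in both RPMI/B27 (0.037) and RPMI_glcM/B27 (0.017) against Day 16 and between these Day 30 groups (−0.020), and ESRRB in Day 30 RPMI/B27 against Day 16 (0.033). By limma-voom with RNR1 as a covariate the same PPRC1 value was −0.019, those of PPARD 0.041, 0.011 and −0.031, and that of RXRA −0.011. Without both libraries of high RNR1, ESRRA in Day 30 RPMI/B27 against Day 16 was −0.0064. With a library left out, signs turned within −0.047 to 0.084 (PPRC1 in HPLM/B27 against Day 16), −0.12 to 0.015, −0.10 to 0.015 and −0.046 to 0.063 (PPARD in the same 3 comparisons), −0.24 to 0.12 (ESRRB in Day 30 RPMI/B27 against Day 16) and −0.018 to 0.050 (RXRA between the changed media). Except for ESRRG in HPLM/B27 against Day 16, none of these had passed.

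Of the lists, on unscaled TPM the partners called fell from 5 to 1 and from 3 to 1 in RPMI_glcM/B27 and HPLM/B27 against Day 30 RPMI/B27, the upstream regulators from 5, 6 and 6 to 1, 1 and 3 against Day 16 and from 1 to 0 in HPLM/B27 against both other Day 30 media, the PPAR targets from 9 and 9 to 5 and 2 against Day 16 and from 5 and 5 to 1 and 1 against Day 30 RPMI/B27, and the ERR targets from 12 and 16 to 6 and 7 against Day 16 and from 12 and 16 to 5 and 9 against Day 30 RPMI/B27. The mitochondrial biogenesis factors called became 1 on unscaled TPM in Day 30 RPMI/B27 and HPLM/B27 against Day 16. Without mitochondrial, ribosomal and RN7SK RNA, the partners in RPMI_glcM/B27 against Day 30 RPMI/B27 became 3, the biogenesis factors in Day 30 RPMI/B27 against Day 16 became 1, and the upstream regulators became 2 in that comparison and 0 in HPLM/B27 against both other Day 30 media. With only the 2 groups in the fit, the partners became 1 in Day 30 RPMI/B27 against Day 16 and 2 and 1 against Day 30 RPMI/B27, the upstream regulators became 2 in Day 30 RPMI/B27 against Day 16 and 0 in HPLM/B27 against both other Day 30 media, and the PPAR targets 3 in RPMI_glcM/B27 against Day 30 RPMI/B27. The upstream regulators in HPLM/B27 against Day 30 RPMI/B27 were 0 with every gene above 0 and 3 with a mean of at least 5 TPM, and 0 in HPLM/B27 against RPMI_glcM/B27 with every gene above 0. The cause of these shifts was not tested.

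Whether equal replicate numbers mark a shared plate or day is not given in the labels. RNR1 was 3793, 29276, 6806 and 5889 TPM in replicate 4 of Day 16, Day 30 RPMI/B27, RPMI_glcM/B27 and HPLM/B27. In the same order it was 49.5, 619, 355 and 138 TPM in replicate 2. It was 127, 1545, 225 and 6359 TPM in replicate 1 and 121, 14387, 4872 and 203 TPM in replicate 3. Same-numbered libraries of different groups had correlations of −0.07 to 0.23 in their deviations from the group means, over 0.1 in 6 of 24 pairs, and a replicate block in the fit gave 3, 5, 6, 4, 5 and 1 regulators called in the 6 comparisons, as without it. Depth limits ESRRB (29 to 120 reads) and PPARG (2 to 16 reads) most. Next by mean reads were RXRA (99 to 252 reads a library) and ESRRA (92 to 261).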
